A study of Mus musculus with 58 samples.

Results

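Transcripts of 6 genes of the late male germ line, Prm1, Prm2, Tnp1, Tnp2, Ldhc and Adam32, were followed in the forestomach, lung and liver of mice dosed by gavage. The 6 genes were picked by name because their forestomach values were already known to be high in some dosed mice, so their forestomach values are given as a description without a test. They were measured by 8 of the 55681 probes and are 6 of the 20678 genes that could be named. Ldhc and Adam32 had 2 probes each. The brightest probe of a gene, by mean sample signal over all arrays, stands for the gene, and the other is called the second probe.

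After meiosis, round spermatids remodel their nucleus while they elongate. Histones are first replaced by transition proteins, encoded by Tnp1 and Tnp2, and these in turn by protamines, encoded by Prm1 and Prm2, which pack the sperm head. The transcripts are made early, stored as silent particles and translated later. Ldhc encodes the lactate dehydrogenase subunit of germ cells, and Adam32 a membrane protein of the ADAM family found on sperm. None of the 6 has a textbook role in squamous epithelium.

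The animals were male Muta™Mouse aged about 13 weeks, a strain whose genome carries a bacterial lacZ reporter, so all of the mice carried it, vehicle mice included. They received olive oil or indeno(123,cd)pyrene (IP), a polycyclic aromatic hydrocarbon, at 12.5, 25 or 50 mg/kg-bw/day for 28 days, and tissues were taken 72 h after the last dose. Each tissue gave 5 arrays per dose (mice 6 to 10, 11 to 15 and 16 to 20). The vehicle group had 5 lung arrays (mice 1 to 5) and 4 arrays each for liver and forestomach (mice 1, 2, 3 and 5), which makes 58 arrays in all. The methods of the study speak of fewer vehicle mice at necropsy than the lung labels give, and without vehicle lung 4 the counts of called member probes and other spermatid genes in lung were still 0. Sample RNA, for forestomach from a randomly taken slice of the organ, was labelled with Cy5 and hybridised against Cy3-labelled Universal Mouse Reference RNA, a pool from 11 mouse cell lines. Every value below is log2 of sample over reference after loess within the array, unless it is called a signal.

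The stretch of 120 bases before the start of transcription is shown for each member that the RefSeq promoter table holds (5 of 6). A link between these sequences and the forestomach values was not tested. Coordinates are those of GRCm38.p6, each sequence runs 5′ to 3′ on the strand of its gene, and capitals mark the motifs searched. Tnp1 lies at chr1:73015900-73016019 on the minus strand, Tnp2 at chr16:10788656-10788775 on the minus strand, Prm1 at chr16:10796824-10796943 on the minus strand, Prm2 at chr16:10792106-10792225 on the minus strand, and the first of the Ldhc starts at chr7:46861143-46861262 on the plus strand.
Tnp1: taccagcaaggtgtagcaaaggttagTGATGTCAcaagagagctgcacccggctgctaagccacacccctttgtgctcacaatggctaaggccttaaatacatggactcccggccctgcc
Tnp2: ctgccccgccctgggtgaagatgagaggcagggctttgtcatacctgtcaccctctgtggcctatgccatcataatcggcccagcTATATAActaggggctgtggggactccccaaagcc
Prm1: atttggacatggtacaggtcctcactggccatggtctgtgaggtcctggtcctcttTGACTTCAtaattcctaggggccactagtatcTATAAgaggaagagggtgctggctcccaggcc
Prm2: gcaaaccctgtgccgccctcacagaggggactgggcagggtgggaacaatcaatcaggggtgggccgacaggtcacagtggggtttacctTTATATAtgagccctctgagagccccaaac
Ldhc: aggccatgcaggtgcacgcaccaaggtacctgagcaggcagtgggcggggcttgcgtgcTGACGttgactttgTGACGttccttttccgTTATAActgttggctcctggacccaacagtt
The motifs were chosen after these sequences had been seen and were searched on both strands. TGANNTCA, the form of a cyclic AMP response element with any base at its centre, occurred in Tnp1 (94 to 87 bases before the start) and in Prm1 (64 to 57 bases before it), and in 7.14% of all 32851 stretches of the same length. The shorter core TGACG occurred at both places marked in Ldhc and in 11.7% of all stretches. TATAA, which resembles a TATA box, occurred in Tnp2, Prm1, Prm2 and Ldhc between 33 and 26 bases before the start, and in 11.8% of all stretches. TATATA, which can overlap TATAA, occurred in Tnp2 and Prm2 and in 2.51% of all stretches. A match is a description of the letters only. In the RefSeq annotation Tnp2, Prm3, Prm2 and Prm1 follow each other on chromosome 16, whereas Tnp1 is on chromosome 1, Ldhc on chromosome 7 and Adam32 on chromosome 8.

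The share of probes whose Cy5 signal was well above background ranged from 43.0% to 85.9% over the 19 forestomach arrays, from 53.0% to 90.7% over the 20 lung arrays and from 37.6% to 78.9% over the 19 liver arrays. The highest forestomach shares, 81.2% in mouse 8 and 85.9% in mouse 18, were both on slide 3. In liver the 4 vehicle arrays lay between 37.6% and 41.7%. The highest liver shares, from 66.6% to 78.9%, were all in dosed mice (9, 13, 15, 16 and 20). All 17 measured genes of a list of forestomach squamous epithelium were well above background on at least 5 forestomach arrays, and 16 of them on every forestomach array.

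Tnp1 was low in every vehicle forestomach, and 11 of the 15 dosed mice exceeded all of them. Its values in vehicle mice 1, 2, 3 and 5 were 0.20, 0.57, 0.40 and 0.04. At 12.5 mg/kg-bw/day, mice 6 to 10 gave 0.37, 2.26, 1.70, 0.55 and 1.19. Mice 7, 8 and 10 were above every vehicle mouse. At 25 mg/kg-bw/day, mice 11 to 15 gave 3.86, 0.27, 1.38, 0.42 and 2.46, with mice 12 and 14 inside the vehicle range and the other three above it. At 50 mg/kg-bw/day, mice 16 to 20 gave 3.84, 0.79, 2.98, 2.50 and 2.97, all above the vehicle mice. The group means were 0.30 ± 0.23 (SD, n = 4), 1.21 ± 0.79 (SD, n = 5), 1.68 ± 1.503 (SD, n = 5) and 2.62 ± 1.13 (SD, n = 5) in order of dose. The mean difference from vehicle at the top dose was 2.32 on the log2 scale, 4.98-fold. The Cy5 signal was well above background on 2 of 4 vehicle arrays and the reference signal on 14 of 19 arrays. The vehicle side of this fold thus lies partly near background. In tissue pieces such as these, a change in the number of cells of a type and a change in RNA per cell cannot be told apart.

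Tnp2, the other transition protein gene, exceeded every vehicle mouse in 10 of the 15 dosed mice, which were those high for Tnp1 other than mouse 10. The vehicle values were -0.23, 0.56, 0.01 and -0.18, and the probe was well above background only in mouse 2. Mice 6 to 10 gave -0.0001, 2.05, 1.38, 0.22 and 0.55. Mice 7 and 8 stood above the vehicle range, and the other three did not. At the middle dose the values were 3.59, 0.22, 1.36, 0.12 and 3.06, again with mice 12 and 14 low. At the top dose the values were 4.00, 0.79, 2.88, 1.67 and 3.45, and all 5 arrays were well above background. The mean moved from 0.04 ± 0.36 (SD, n = 4) in vehicle to 2.56 ± 1.31 (SD, n = 5) at the top dose, a difference of 2.52 (5.73-fold). The reference channel was well above background on only 5 of the 19 arrays, so the ratio is taken against a signal near background.

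Prm1, which encodes the protamine found in all mammals, had the largest mean difference from vehicle of the 6 genes at the top dose. Vehicle mice gave -0.03, 0.85, 0.35 and 0.05, and their Cy5 signals, between 120.5 and 279.5, were well above background on every array. Mice 6 to 10 gave 0.46, 2.69, 1.78, 1.23 and 0.53, and mice 7, 8 and 9 exceeded the vehicle range. Mice 11 to 15 gave 5.31, 0.47, 1.95, 0.62 and 3.56. Mouse 11 at the middle dose held the highest Prm1 ratio of the series, and mice 12 and 14 of the same dose were within the vehicle range. Mice 16 to 20 gave 4.92, 1.08, 3.45, 3.46 and 4.29, with Cy5 signals between 378 and 4322. Group means were 0.30 ± 0.40 (SD, n = 4), 1.34 ± 0.93 (SD, n = 5), 2.38 ± 2.06 (SD, n = 5) and 3.44 ± 1.46 (SD, n = 5). The differences from vehicle were 2.05-fold, 4.22-fold and 8.78-fold. No Prm1 spot was saturated.

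Prm2, the second protamine gene, followed the same order. The vehicle values were -0.68, 0.05, -1.02 and -1.04. Those of mice 6 to 10 were -0.42, 1.66, 0.86, 0.32 and -0.19, with mice 7, 8 and 9 above the vehicle range. Mice 11 to 15 gave 3.13, -0.60, 1.40, -0.38 and 2.64. Mice 12 and 14 were within the vehicle range for this gene as well. Mice 16 to 20 gave 3.48, 0.36, 2.20, 2.01 and 3.38, and mouse 17 was the lowest of them, as it was for Tnp1, Tnp2 and Prm1. The mean moved from -0.67 ± 0.51 (SD, n = 4) to 2.29 ± 1.27 (SD, n = 5), a difference of 2.96 (7.77-fold).

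**Figure D1:**
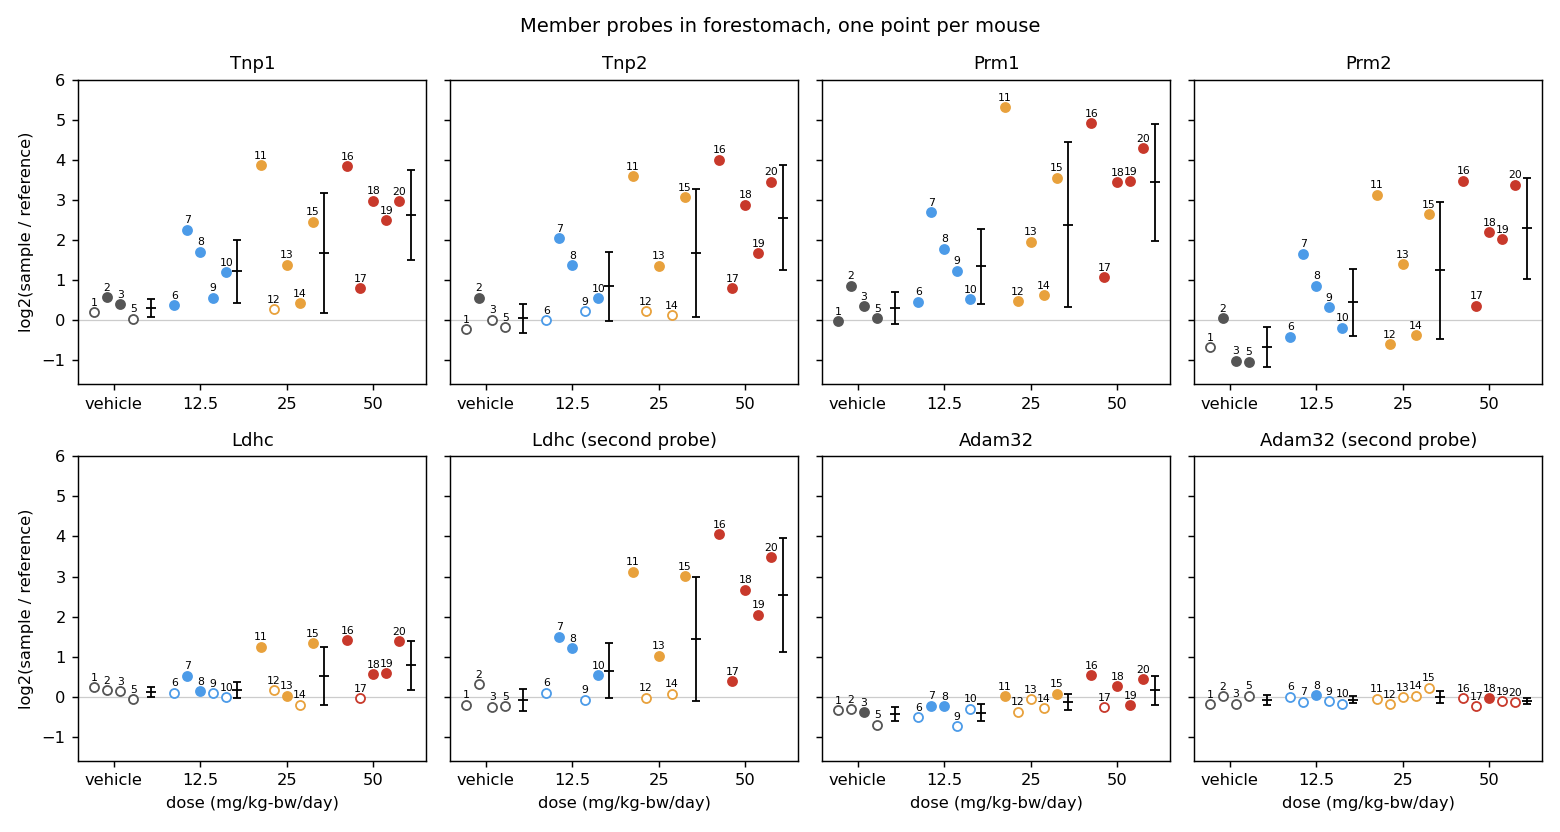
Log2 ratio of sample over reference (vertical axis) of the 8 member probes in forestomach by IP dose (horizontal axis). Each point is a mouse with its number, filled where the Cy5 signal was well above background and open where it was not, and the bar beside each group is its mean ± SD. Mice 7, 8, 11, 13, 15, 16, 18, 19 and 20 stand high for Tnp1, Tnp2, Prm1 and Prm2, whereas the second Adam32 probe stays between -0.23 and 0.23.

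Ldhc gave a smaller difference by its brightest probe than by its second one. By the brightest probe, the vehicle values were 0.24, 0.16, 0.14 and -0.06, the values of mice 6 to 10 were 0.10, 0.52, 0.14, 0.09 and -0.02, and none of the vehicle arrays was well above background. Mice 11 to 15 gave 1.25, 0.16, 0.03, -0.20 and 1.33, and mice 16 to 20 gave 1.40, -0.04, 0.57, 0.59 and 1.38. Mouse 17 lay within the vehicle range, so the groups overlapped at the top dose.

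By its second probe, Ldhc was at -0.20, 0.32, -0.25 and -0.23 in vehicle mice and at 0.10, 1.4998, 1.20, -0.08 and 0.53 in mice 6 to 10. It was at 3.12, -0.02, 1.02, 0.08 and 3.01 in mice 11 to 15 and at 4.06, 0.38, 2.67, 2.05 and 3.49 in mice 16 to 20. All 5 mice of the top dose were above every vehicle mouse. This probe was well above background in the sample channel on 0 of 4 vehicle arrays and 5 of 5 arrays of the top dose, and in the reference channel on 0 of 19 arrays. Where a probe was below background on every vehicle array, the fold is a lower bound, taken as the dosed mean of the normalised Cy5 signal over the vehicle mean of either the lowest signal well above background or the signal of the probe itself, whichever was higher, and it is open to dye bias since dyes were not swapped. By the second probe, Ldhc was then at least 3.98-fold higher at 50 mg/kg-bw/day. At 25 and at 12.5 mg/kg-bw/day this probe was well above background on only 3 of 5 arrays. No bound is given for these doses, since dosed signals below background would enter it. For the brightest probe no bound is given, since the one formed from the Cy5 channel exceeded the fold of the ratios at the top and low dose. Both probes carry the same RefSeq identifier.

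Adam32 differed least among the 6 genes. Its vehicle values were -0.33, -0.31, -0.38 and -0.70, and those of mice 6 to 10 were -0.51, -0.23, -0.24, -0.73 and -0.30. At the middle dose the values were 0.02, -0.37, -0.07, -0.29 and 0.07, and at the top dose 0.54, -0.26, 0.27, -0.21 and 0.44. Mice 16, 18 and 20 stood clearly above the vehicle mice, while mice 17 and 19 were just above mouse 2, the highest of them. The mean difference at the top dose was 0.59 (1.503-fold). The brightest probe was well above background on 1 of 4 vehicle arrays, 4 of 5 top-dose arrays and 9 of 19 forestomach arrays in all. The fold is thus taken near background. The second probe was well above background on 2 of 19 forestomach arrays, and its group means lay between -0.11 and 0.00.

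The 4 genes of sperm chromatin were high in the same mice. Tnp1, Tnp2, Prm1 and Prm2 all exceeded every vehicle mouse in 10 of the 15 dosed mice, which were mice 7 and 8 at the low dose, mice 11, 13 and 15 at the middle dose, and all 5 at the top dose. In mice 6, 12 and 14 none of the 4 genes did. The brightest Ldhc probe exceeded every vehicle mouse in 7 of the 15 dosed mice, and not in mice 8, 13 or 17, its second probe in 11, and Adam32 in 12. In mice 10, 13, 14 and 17, which are among these 12, Adam32 was not well above background. Pearson's r between pairs of the 6 genes over the 19 forestomach arrays ranged from 0.79 (Ldhc and Adam32) to 0.98 (Prm1 and Prm2), with a median of 0.89 over 15 pairs. These points share array, slide and reference, and members were chosen for this pattern. Over the 20 lung arrays the median r of the same pairs was 0.31, and over the 19 liver arrays it was -0.10.

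The mean over the 6 genes, each set against its own vehicle mean, was 0.66 ± 0.60 (SD, n = 5) at 12.5, 1.28 ± 1.27 (SD, n = 5) at 25 and 2.03 ± 1.00 (SD, n = 5) at 50 mg/kg-bw/day, beside an SD of 0.27 among the 4 vehicle mice. The low-dose mean was 0.43 without mouse 7. The 3 dose groups share the vehicle mice. At the top dose 6 of 8 member probes had every dosed mouse above every vehicle mouse, and so had 0.891% of the probes measured in all of those arrays. At the middle and low dose 0 of 8 did, against 0.924% and 0.509% of probes. Since the members were chosen on this contrast, nothing is read from these counts. For background, the limma fit across all 55681 probes called 0% of them in forestomach at each dose (adjusted p at most 0.05 and fold change at least 1.5), and 4.12%, 3.59% and 3.89% had an unadjusted p under 0.05 in order of dose.

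Each of the 5 forestomach slides held one array per dose, apart from the vehicle array missing from slide 3, and each dose kept to 1 column. Dose in forestomach is thus confounded with column but not with slide. Within slides, the member mean of the top-dose mouse exceeded that of the vehicle mouse by 3.17 on slide 1, 0.14 on slide 2, 1.99 on slide 4 and 2.74 on slide 5. Slide 2, which held mouse 17, was the only one of the 4 with a small difference, and there the low-dose mouse, mouse 7, was the highest at 1.55. On slide 3, mice 8, 13 and 18 were at 0.99, 1.06 and 2.11. The 3 differences from vehicle without slide 3 were 0.57, 1.34 and 2.01.

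**Figure D2:**
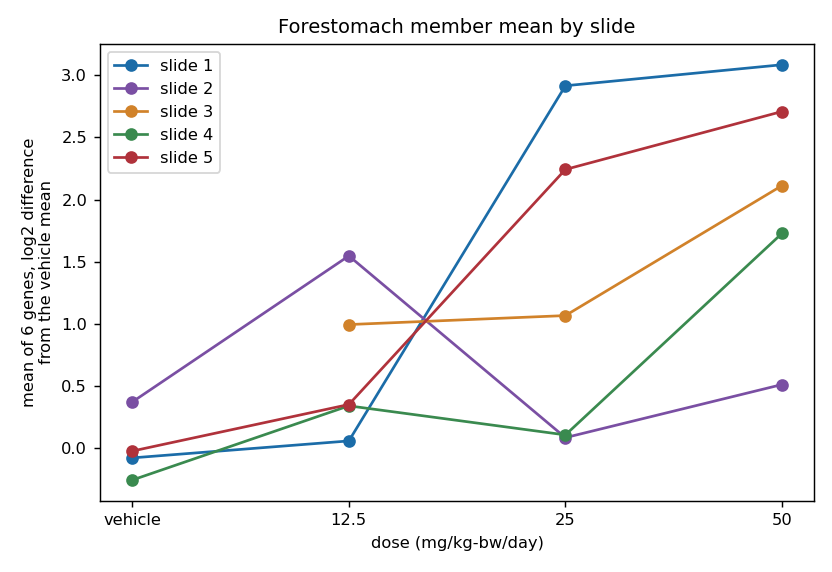
Mean log2 difference of the 6 genes from the vehicle mean (vertical axis) by IP dose (horizontal axis) in forestomach, each point a mouse and each line a slide. On slides 1 and 5 both upper doses lie at least 2.24 above zero, whereas slide 2 is highest at 12.5 mg/kg-bw/day with 1.55.

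In the lung and liver of the same mice the log2 differences of the member probes from vehicle lay between -0.34 and 0.26 at every dose. With the log ratio of the scanner software the liver values spread further, from -0.92 for Prm2 at 25 mg/kg-bw/day to 1.11 for Ldhc at 50 mg/kg-bw/day, and in lung Tnp2 at 12.5 mg/kg-bw/day was at -0.60, none of them called. Mouse 16, whose forestomach had Prm1 at 4.92, had it at -0.09 in lung and 0.20 in liver. Mouse 11, with 5.31 in forestomach, gave 0.02 in lung and 0.34 in liver. For Tnp2, mouse 16 gave 4.00 in forestomach, -0.35 in lung and -0.09 in liver. Neither mouse was high in lung, where mouse 16 had the lowest member mean of all lung arrays (-0.19). The liver of mouse 16 was among the higher ones for the brightest Ldhc probe (0.63). That liver array also had the highest share of probes well above background in liver (78.9%). Over all lung arrays, Prm1 ranged from -0.48 to 0.41, Prm2 from -1.24 to -0.43, Tnp1 from -0.12 to 0.50 and Tnp2 from -0.41 to 0.04. Over all liver arrays, the corresponding ranges were -0.29 to 0.71, -1.39 to -0.60, -0.12 to 0.44 and -0.28 to 0.11. The second Ldhc probe was well above background on 0 of 20 lung and 1 of 19 liver arrays, and Tnp2 on 2 of 20 and 3 of 19. The brightest Ldhc probe was so on 9 of 20 and 5 of 19, and the second Adam32 probe on 5 of 20 and 4 of 19. For these the values mostly describe background. Prm1 and Prm2 were well above background on all 20 lung arrays. In liver Prm1 was so on 13, Adam32 on 11, Tnp1 on 10 and Prm2 on 9 of 19 arrays, so many of these values also lie near background.

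The choice of the members used no lung or liver contrast, so these were tested. In lung, 0 of 8 member probes were called by limma at 12.5, 25 or 50 mg/kg-bw/day, beside 0%, 0.0126% and 0.079% of all probes, and 0 of 8 reached an unadjusted p under 0.05, beside 3.92%, 6.54% and 8.81% of all probes. The log2 differences lay between -0.18 and 0.15 at the low dose, between -0.11 and 0.10 at the middle dose and between -0.10 and 0.06 at the top dose. The smallest limma adjusted p of a member in lung was 0.856. In liver, 0 of 8 were called at each dose, beside 0% of all probes at each dose, and the smallest limma adjusted p was 0.725. An unadjusted p under 0.05 was given by 0, 1 and 1 of 8 probes, beside 2.58%, 4.42% and 6.84% of all probes. These were Prm2 at 25 mg/kg-bw/day, with a log2 difference of -0.34 ± 0.14 (SE, limma unadjusted p = 0.0218), and Adam32 at 50 mg/kg-bw/day, with -0.34 ± 0.15 (SE, limma unadjusted p = 0.0399). By exact permutation tests, two-sided, of the 6 genes in both tissues, only the second of these was under 0.05 (exact p = 0.0318, and 0.961 after Benjamini-Hochberg adjustment over 36 tests). The smallest p that these permutations allow is 0.00794. In liver, Prm2 was well above background on 1 of 4 vehicle arrays and 2 of 5 arrays at 25 mg/kg-bw/day. Adam32 was so on 2 of 4 vehicle arrays and 2 of 5 arrays at 50 mg/kg-bw/day. A p above the threshold does not show that the groups were alike.

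**Figure D3:**
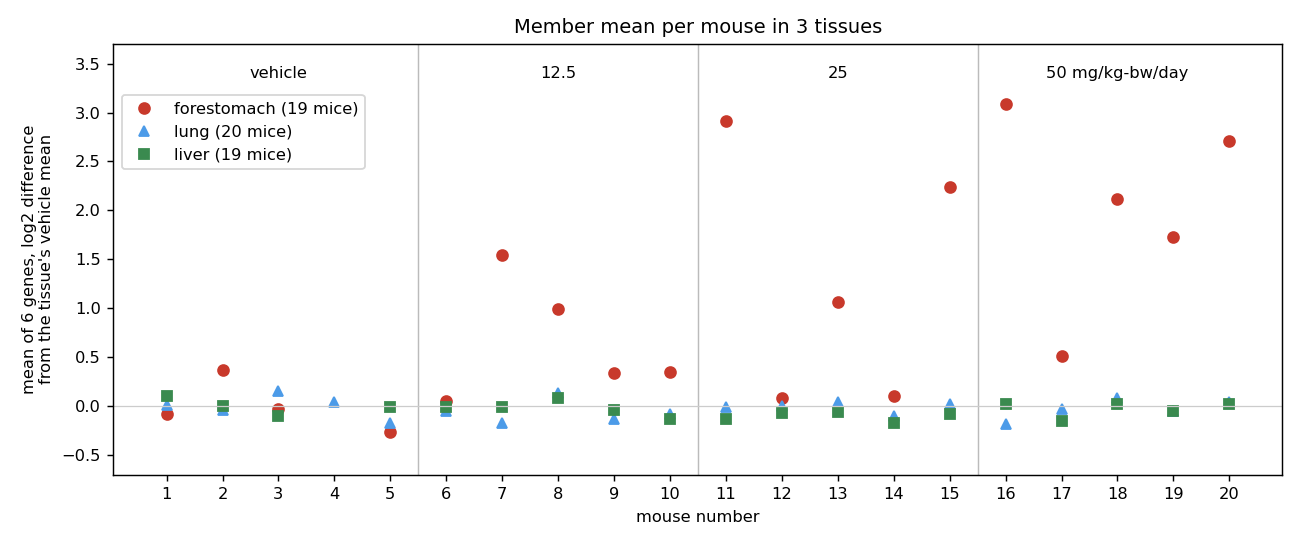
Mean log2 difference of the 6 genes from the vehicle mean of the same tissue (vertical axis) for every mouse (horizontal axis, by number), with circles for forestomach, triangles for lung and squares for liver. Lung and liver stay between -0.19 and 0.15 in every mouse, and forestomach reaches 2.92 in mouse 11 and 3.09 in mouse 16.

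Vehicle lung and vehicle liver were also compared, to set the level of the members in tissues where no dose difference was called. Prm1 was at -0.04 ± 0.33 (SD, n = 5) in lung and 0.19 ± 0.09 (SD, n = 4) in liver, and Prm2 at -0.90 ± 0.27 and -0.81 ± 0.27. None of the 8 probes was called, whereas 26.8% of all probes were. Adam32 came nearest, with -0.37 ± 0.18 (SD, n = 5) in lung and 0.14 ± 0.31 (SD, n = 4) in liver. The difference of -0.51 ± 0.15 (SE, limma adjusted p = 0.00424) fell short of the fold threshold, and its limma adjusted p was 0.981 under median-centring, where the difference was 0.01. With the mouse number as a replicate block over the 4 mice that gave both tissues, it was -0.50 (limma adjusted p = 0.0327). Lung and liver lay on different slides and were read by different scanner software versions, which cannot be told apart from tissue. The forestomach vehicle means were 0.30 for Prm1, -0.67 for Prm2 and -0.43 for Adam32.

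Other genes linked to spermatids and sperm were examined from 5 lists, which hold 73 genes besides the members, all measured. Some, such as Crem, Tbpl1 and Odf2, were well above background on every forestomach, lung and liver array. The lists are thus not limited to genes found only in spermatids. The lists were drawn up with the pattern of the members known, so their forestomach counts are a description. Of the 73 genes, 43 were well above background on at least 5 of the 19 forestomach arrays, some of them through dosed mice alone. In forestomach, 0 of 73 were called by limma at any dose. At an unadjusted p under 0.05, 17 of 73 were higher and 0 lower at 50 mg/kg-bw/day, beside 2.67% and 1.56% of the 20678 named genes. The counts were 5 higher and 2 lower at 25 mg/kg-bw/day (2.44% and 1.51% of named genes) and 2 higher and 2 lower at 12.5 mg/kg-bw/day (1.92% and 2.55%). The median log2 difference over the 73 genes was 0.13 at the top dose, beside 0.01 over all named genes, and 0.08 and 0.04 at the middle and low dose. Without slide 3, 18 of the 73 were higher and 0 lower at the top dose at an unadjusted p under 0.05, beside 2.46% and 1.2% of named genes. In lung the counts of higher genes in order of dose were 2, 1 and 1 (3.64%, 6.16% and 7.95% of named genes) and of lower genes 0, 0 and 2 (1.66%, 3.29% and 4.53%). In liver they were 0, 4 and 1 (1.25%, 2.27% and 3.38%) and 1, 2 and 3 (1.47%, 2.47% and 4.87%), and 0 of 73 were called by limma in each tissue and dose.

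The pattern over mice was then compared gene by gene, as Pearson's r over the 19 forestomach arrays with the member mean. This is a description, since all of these values share their arrays. An r of at least 0.7 was found for 18 of the 73 other spermatid genes, beside 0.513% of all named genes. Of the 18, 16 were well above background on at least 5 forestomach arrays. Of the chromatin genes, 3 of 4 reached 0.7, namely the spermatid linker histones Hils1 (0.92) and H1f7 (0.91), and Prm3 (0.75), the neighbour of Prm2. The testis histone gene H2bc1 was at -0.36. Of the enzymes, 3 of 11 did, among them Gapdhs, the sperm form of glyceraldehyde-3-phosphate dehydrogenase (0.94). Of the tail and cytoskeleton genes, 9 of 22 did, among them Smcp, which encodes a cysteine-rich protein of the sperm mitochondrial capsule (0.94), Akap4 of the fibrous sheath (0.92) and Odf2 of the outer dense fibres (0.91). Tekt1, a tektin of cilia and flagella, had an r of 0.89 and was well above background on all 20 lung arrays. Of the regulators, 3 of 13 reached 0.7, all of them testis-specific serine kinases, namely Tssk3 (0.86), Tssk6 (0.80) and Tssk2 (0.73). Tssk2 was well above background on only 1 of 19 forestomach arrays, so its r mostly describes background. Crem, which encodes the activator that binds cyclic AMP response elements in spermatids, was at -0.41. Its probe was well above background on every forestomach, lung and liver array. The mean levels of the chromatin, enzyme, tail and regulator lists, members left out, had r values of 0.89, 0.93, 0.96 and 0.81. Of 23 acrosome and sperm surface genes, 0 reached 0.7, although the mean level of the list had an r of 0.73, and 7 of these were well above background on at least 5 forestomach arrays.

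Smcp is shown as one of the listed genes most like the members, and does not stand for the 73 genes as a whole. Its log2 ratios were 0.27, 0.02, -0.40 and -0.12 in vehicle mice 1, 2, 3 and 5, none of them well above background. Mice 11 to 15 gave 1.78, -0.20, 0.50, -0.03 and 1.73, and mice 16 to 20 gave 2.41, 0.13, 0.84, 0.95 and 2.41. Mice 12, 14 and 17 were low for Smcp as they were for the protamines. Gapdhs was between -0.26 and 0.12 in vehicle mice and reached 1.08 in mouse 20 and 1.01 in mouse 16. Hils1 was between -0.24 and 0.06 in vehicle mice and between 0.03 and 1.93 at the top dose. Smcp, Gapdhs, Hils1 and Meig1 were well above background on 0 of 4 vehicle arrays, so no size of difference is given for them, and a gene can be well above background on 5 forestomach arrays through dosed mice alone. Mean log2 differences at the top dose were 0.81 for H1f7, 0.75 for Tcp11, 0.73 for Odf2 and 0.63 for Akap4, which were well above background on 1, 3, 4 and 1 of the 4 vehicle arrays. In lung, Smcp lay between -0.23 and 0.14 over all groups, but it was well above background on only 4 of 20 lung arrays, so these values mostly describe background.

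**Figure D4:**
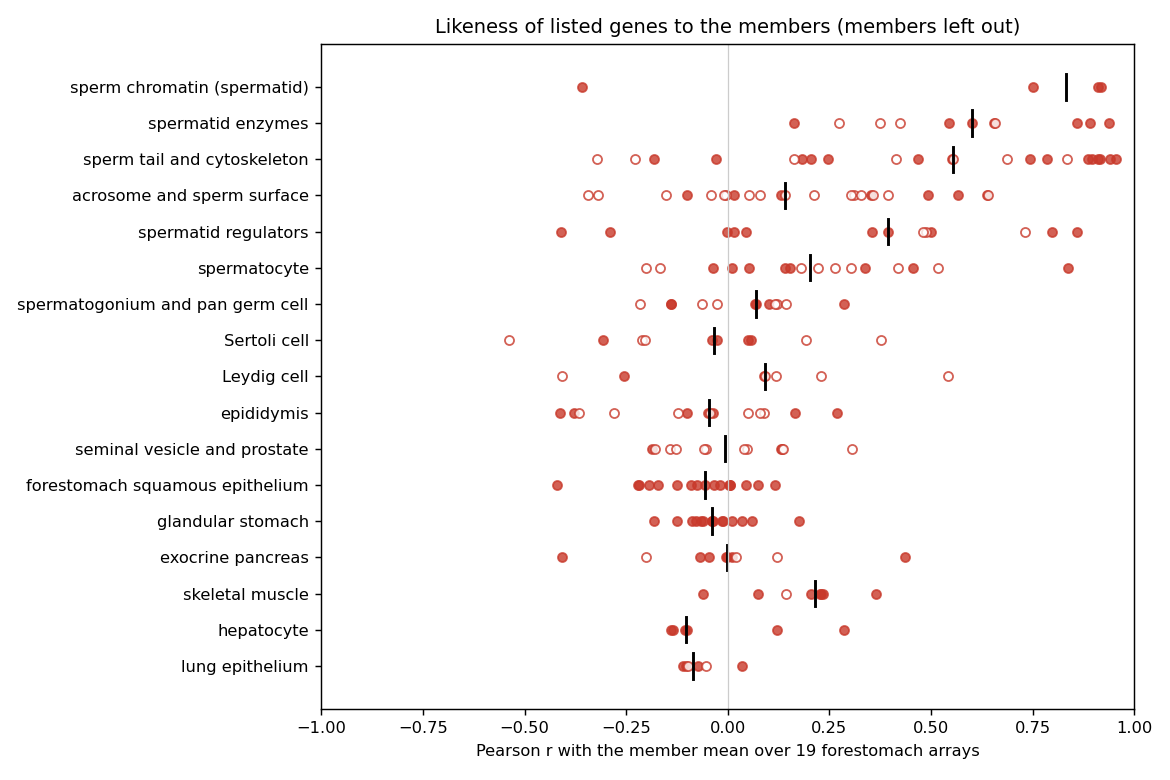
Pearson's r with the member mean over the 19 forestomach arrays (horizontal axis) for each gene of 17 lists (rows), members left out. Points are filled where the gene was well above background on at least 5 forestomach arrays, and the black bar is the median of the list, which is 0.83 for sperm chromatin genes and 0.07 for spermatogonium genes.

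Among all probes well above background on at least 5 of the 19 forestomach arrays (33388 probes without the members), 117 had an r of at least 0.7 and 32 an r of at least 0.9. The 10 most alike were Gm9999 (0.97), Gsg1 (0.96), Meig1 (0.96), Cypt4 (0.95), a probe given only by position in the files (0.95), 1700042G07Rik (0.95), 2410141K09Rik (0.95), 1700013G24Rik (0.94), 1700034E13Rik (0.94) and Smcp (0.94). Of the 10, only Gsg1 was well above background on a vehicle forestomach array, that of mouse 3. The other probes passed the filter through dosed mice alone. Gsg1 is a germ cell associated gene, Meig1 is needed for the manchette of the elongating spermatid, and Cypt4 belongs to a family of proteins around the sperm nucleus. Gsg1 was between -0.25 and 0.31 in vehicle mice and at 2.15 in mouse 11, 1.68 in mouse 15, 2.30 in mouse 16 and 1.84 in mouse 20. Mice 12 and 14 had Gsg1 at -0.02 and -0.01. Meig1 and Gsg1 were well above background on all 20 lung arrays as well, and 1700042G07Rik on none of them.

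**Figure D5:**
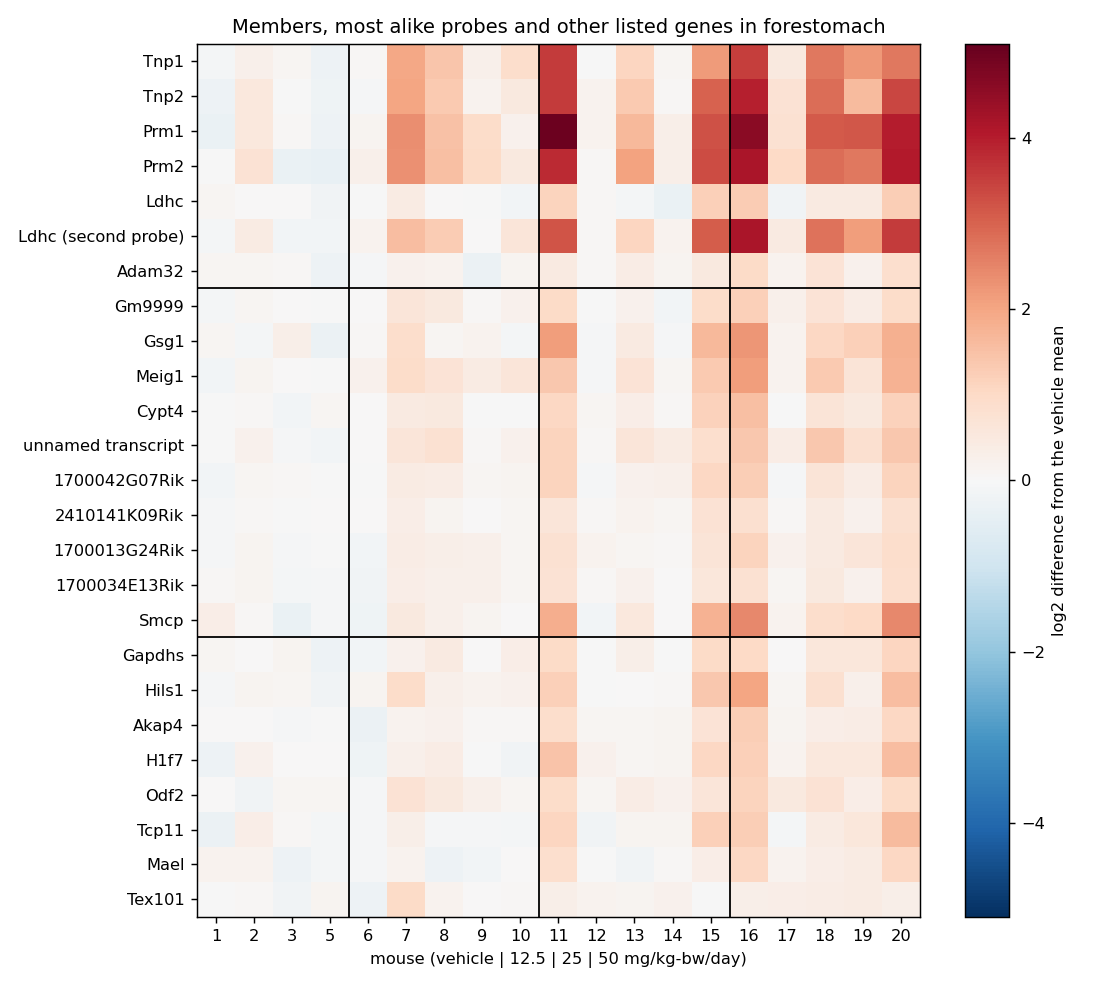
Log2 difference from the vehicle mean (colour) of 7 member probes (top block), the 10 most alike probes (middle block) and other listed genes (bottom block) in the 19 forestomach arrays (columns, by mouse number and dose group). Columns 11, 15, 16 and 20 are the darkest in each block, with Prm1 at 5.01 above vehicle in mouse 11, and columns 12 and 14 are pale. For probes below background on every vehicle array, the colours show the pattern over mice and not the size of a difference.

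Genes of earlier germ cells and of other cells of the male tract were set against the member mean in the same way. Of 16 spermatocyte genes, 1 had an r of at least 0.7, Mael (0.84), a factor of the piRNA pathway, which was well above background on 0 of 4 vehicle arrays. At the top dose 3 of these 16 genes had a higher and 0 a lower level at an unadjusted p under 0.05 (2.67% and 1.56% of named genes), with 0 called by limma and a median log2 difference of 0.12. The mean level of the spermatocyte list had an r of 0.58 with the member mean. Among the spermatocyte genes well above background on at least 5 forestomach arrays, Tex101 followed with 0.45 and Rec8 with 0.34, and Hormad1 and Dmc1 had 0.15 and 0.14. Stag3 (0.52) and Sycp3 (0.42) were well above background on 0 and 3 of 19 forestomach arrays. Of the 16 spermatocyte genes, 8 were well above background on at least 5 forestomach arrays. Dmc1 and Rec8 were so on all 19, H1f6 on 15 and Tex101 on 12. Sycp1, Sycp2, Stag3 and Spata22, which are genes of meiotic chromosomes, were well above background on 0 of 19 forestomach arrays. Of 12 spermatogonium and pan germ cell genes, 6 were well above background on at least 5 forestomach arrays. Zbtb16 and Nanos3 were so on all 19, and Ddx4, Dazl and Stra8 on none. An r of at least 0.7 was reached by 0 of the 12, and the highest was Dmrt1 at 0.29. The count was also 0 for 10 Sertoli cell genes, for the 7 Leydig cell genes measured, for 14 epididymis genes, among which Crisp1 (0.27) and Cst8 (0.17) were highest, and for 12 seminal vesicle and prostate genes. Of all named genes 0.513% reached 0.7, so lists this short would mostly give 0. Of the epididymis genes 7 of 14, and of the seminal vesicle and prostate genes 2 of 12, were well above background on at least 5 forestomach arrays. Of the Sertoli cell genes, 5 of 10 were well above background on at least 5 forestomach arrays. Rhox8 and Wt1 were so on all 19, and Fshr and Aard on 0. Of the Leydig cell genes 2 of 7 were, Cyp17a1 and Star, both on all 19, and Lhcgr and Hsd17b3 were on 0. The mean level of the epididymis list ran from 0.23 to 0.40 in vehicle mice and from 0.14 to 0.40 at the top dose. The mean level of the spermatocyte list ran from -0.17 to -0.04 in vehicle mice and from -0.01 to 0.20 at the top dose. The mean levels of the spermatogonium, Sertoli cell, Leydig cell, epididymis, and seminal vesicle and prostate lists had r values of 0.16, -0.14, 0.23, -0.08 and 0.04 with the member mean. The part of any of these lists in the members' values was not tested.

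Markers of other tissues also varied between forestomach arrays. The mean log2 ratio of the 15 measured glandular stomach genes ran from 0.44 to 5.60 among vehicle mice and from 0.90 to 5.79 at the top dose, and its r with the member mean over the 19 arrays was -0.03. The squamous list ran from 4.32 to 4.78 in vehicle mice and from 3.93 to 4.58 at the top dose, with an r of -0.19. The skeletal muscle list had an r of 0.24, with 0.50 to 0.98 in vehicle mice and 0.29 to 2.92 at the top dose. The lists of exocrine pancreas, hepatocyte and lung epithelium genes had r values of -0.02, 0.00 and -0.07.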

How the data were processed

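Total RNA from lung, liver and forestomach was hybridised to 2-colour Agilent arrays against a common reference. The authors deposited scanner output in which spots are median pixel intensity values, together with flags (other) for outliers, saturation and signal well above background, and the scanner software's log10 ratio. Feature Extraction was version 10.7.3.1 for lung and forestomach and 11.0.1.1 for liver, per the file headers. The authors also deposited a table of normalised log2 values. Its lung and forestomach columns matched the arrays (lowest r = 0.996), whereas its liver columns did not (r between -0.0068 and 0.0067) and were not used.

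Here, control spots and outlier spots were left out, log2(Cy5/Cy3) of median intensities was loess-normalised within arrays without background subtraction, and dose groups were fitted within tissue with limma 3.58.1 in R 4.3.3, with Benjamini-Hochberg adjustment over all probes. Vehicle lung and liver were compared in 1 fit of all 12 groups. Mouse numbers pair tissues, since they name 1 animal (median r of deviations from group means between lung and liver of 1 mouse, 0.04). Probes were named through RefSeq (27267 of 55681), with the liver files' newer identifiers first where they differed (9107 probes). The fit was tested on simulated data. The members, the gene lists and the tests were chosen with earlier results of these data known. Named genes were all members, up to 8 listed genes per family with the highest r that were well above background on at least 5 forestomach arrays, and the 10 most alike probes. Genes named beyond these were chosen after their values were seen. Alternatives were normexp with offset 50, median-centring, Cy5 alone, the scanner's log ratio, the authors' table, the outlier spots kept, probes rarely above background removed, a slide term in the fit, all probes of a gene and omission of each mouse. Array number limits the precision.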

Additional observations from a re-analysis of the deposited data

Results flagged for a closer look

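Of 96 groups of 4 or 5 arrays (8 member probes in 12 groups), 6 had an array far from the others by Dixon's ratio, where chance gives about 1 in 20. In forestomach these were the brightest Ldhc probe in mouse 7 at 12.5 mg/kg-bw/day (0.52, the others between -0.02 and 0.14) and the second Ldhc probe in vehicle mouse 2 (0.32, the others between -0.25 and -0.20). In liver it was Tnp1 in vehicle mouse 5 (-0.067, the others between 0.31 and 0.38). In lung these were Adam32 in mouse 8 at 12.5 mg/kg-bw/day (-0.15, the others between -0.50 and -0.42), Adam32 in mouse 14 at 25 mg/kg-bw/day (-0.41, the others between -0.26 and -0.21) and the second Adam32 probe in vehicle mouse 4 (-0.27, the others between -0.02 and 0.08).

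In 3 comparisons at 50 mg/kg-bw/day every forestomach array lay above the vehicle mean of its tissue while every array of another tissue lay below its own. Prm2 differed from vehicle by 2.96 in forestomach and by -0.18 in liver, which is 3.14 apart. Tnp2 differed by 2.52 in forestomach and by -0.09 in lung, which is 2.60 apart. Adam32 differed by 0.59 in forestomach and by -0.34 in liver, which is 0.93 apart. The difference between tissues was not tested, because the forestomach contrast was used to choose the genes.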

How the results depend on the processing

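The mean difference of the 6 genes in forestomach kept its direction under every alternative run. It ranged from 0.53 to 1.33, from 1.08 to 2.21 and from 1.84 to 3.23 at the low, middle and top dose, and the values farthest from those reported, 1.33 and 3.23 at the low and top dose, came from the scanner software's background-subtracted log ratio. The cause was not tested. With each mouse left out in turn the ranges were 0.43 to 0.81, 0.87 to 1.58 and 1.76 to 2.41. The counts of called member probes in lung and liver, and of other called spermatid genes in each tissue, were 0 at every dose and under every alternative run, and 26 of the 36 uncalled differences of the 6 genes in lung and liver changed sign under at least one. In vehicle lung against vehicle liver, Adam32 ranged from -0.61 to -0.36 with each vehicle mouse left out and was called without liver mouse 3 (-0.61, limma adjusted p = 0.0014). The replicate block changed no call. The authors' table was not used for liver or for lung against liver. The other Ldhc probe and slide 3 left out were chosen after seeing the data. Signals near background limit Tnp2, Ldhc and Adam32, in vehicle forestomach also Tnp1, and in liver Prm2 and Tnp1 as well.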
